A study of Mus musculus with 9 samples.

Results

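Basement membranes are thin sheets of extracellular matrix under epithelia and around vessels, muscle fibres and nerves. The gene set described here holds 32 genes listed by symbol, chosen with earlier results of these data known. They encode collagen IV chains, laminin chains, nidogens, proteoglycans and proteins bound to the sheet. All 32 were found among the 24421 symbols of the count tables, and 31 of them were among the 14054 genes that passed the filter on low counts and were tested, the exception being Ntn4. The tissue was retinal pigment epithelium and choroid of 8-week-old male mice with laser-induced choroidal neovascularization, in which burns rupture the Bruch membrane and new choroidal vessels grow through it. Each eye had received an intravitreal injection of 5 µg of Fc, of ABTAA or of VEGF Trap, and 3 libraries were deposited for each of these groups. Fc is the constant part of an antibody and served as the control, ABTAA is an antibody that binds angiopoietin-2 and activates the receptor Tie2, and VEGF Trap is a soluble decoy receptor for VEGF. All groups had the same laser injury, no uninjured tissue was analysed here, and the strain, the interval from injection to collection and the number of animals behind a library are unknown from the sources used here.

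Collagen IV and laminin each form a network in a basement membrane, and nidogens and the heparan sulfate proteoglycan perlecan link the networks. The Bruch membrane lies between the pigment epithelium and the capillaries of the choroid and is faced by the basement membrane of each, with collagen and elastic layers in between. Laser capture took the lesion with a margin of pigment epithelium and choroid, so the RNA came from endothelial cells, pericytes, pigment epithelium, fibroblasts and invading cells together, and fewer cells of a type cannot be told apart from less RNA per cell.

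Total counts ran from 6335805 to 14439835 per library, at which 3 counts correspond to 0.209 to 0.469 CPM (read counts scaled to library size with TMM factors), a limit that covers counting error only. All 12 endothelial markers were counted in every library, as were 9 of 10 pigment epithelium markers, the exception being Best1. All 12 skeletal muscle, 8 macrophage and 6 Schwann cell markers were counted in every library too. Such counts therefore do not tell the labelled tissue from others. Skeletal muscle markers, which no label names as a tissue, summed to 105 to 161 CPM in Fc, 234 to 480 CPM in ABTAA and 218 to 383 CPM in VEGF Trap. The ribosomal gene Rn45s held 10.1% to 11.8% of counts in Fc, 11.7% to 13.1% in ABTAA and 12.9% to 15.8% in VEGF Trap. VEGF Trap 1 stood apart, with the highest Rn45s share and the highest sums of photoreceptor (199 CPM), lens (66.5 CPM) and melanocyte markers (3990 CPM). Libraries are named by the titles, although the headings of the Fc tables refer to controls of a knockout. If the Fc libraries differ from the others in more than the injection, comparisons with Fc cannot tell that difference apart from treatment. Nothing ties a library to an animal, and p-values therefore measure only the spread between these libraries, which may be technical.

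The 6 collagen IV genes lie in head-to-head pairs, with the starts of partners close together on opposite strands. In GENCODE M21 on GRCm38, the starts of Col4a1 and Col4a2 on chromosome 8 are 21 bases apart, those of Col4a3 and Col4a4 on chromosome 1 are 72 bases apart, and those of Col4a5 and Col4a6 on chromosome X are 1309 bases apart. The promoter windows of Col4a1 and Col4a2 are shown because these partners had the same direction in the comparisons with VEGF Trap below. Col4a3 and Col4a4 also shared a direction in those comparisons, but no window was listed for Col4a3. Both come from RefSeq on GRCm38.p6, run from 250 bases before to 50 after a start, and are written 5′ to 3′ on the strand of the gene (chr8:11312777-11313076 on the minus strand for Col4a1, chr8:11312555-11312854 on the plus strand for Col4a2). Capitals mark the 78 bases that the windows share, which appear as reverse complements of each other.
Col4a1: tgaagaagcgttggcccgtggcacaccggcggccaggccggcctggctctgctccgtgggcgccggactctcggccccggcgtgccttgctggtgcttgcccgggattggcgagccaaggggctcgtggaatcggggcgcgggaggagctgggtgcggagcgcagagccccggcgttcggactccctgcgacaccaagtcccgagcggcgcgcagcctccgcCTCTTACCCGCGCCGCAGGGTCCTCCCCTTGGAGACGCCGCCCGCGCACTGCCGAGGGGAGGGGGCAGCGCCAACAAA
Col4a2: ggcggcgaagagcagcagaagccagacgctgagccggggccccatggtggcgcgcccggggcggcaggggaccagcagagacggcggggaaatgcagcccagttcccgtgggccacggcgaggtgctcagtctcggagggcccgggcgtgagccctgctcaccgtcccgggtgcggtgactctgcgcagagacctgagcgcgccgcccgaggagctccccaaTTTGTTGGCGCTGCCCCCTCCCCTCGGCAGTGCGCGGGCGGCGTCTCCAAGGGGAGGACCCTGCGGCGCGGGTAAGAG

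The next windows belong to the 3 members that passed the test in a comparison with Fc, Lamb1, Hspg2 and Npnt, and to Lamb2, whose protein takes the same place in a laminin as that of Lamb1. They lie at chr12:31265043-31265342 on the plus strand (Lamb1), chr9:108479612-108479911 on the plus strand (Lamb2), chr4:137468553-137468852 on the plus strand (Hspg2) and chr3:132950242-132950541 on the minus strand (Npnt, the first of its 2 windows). Capitals mark GGGCGG, the GC box, on either strand (CCGCCC on the other).
Lamb1: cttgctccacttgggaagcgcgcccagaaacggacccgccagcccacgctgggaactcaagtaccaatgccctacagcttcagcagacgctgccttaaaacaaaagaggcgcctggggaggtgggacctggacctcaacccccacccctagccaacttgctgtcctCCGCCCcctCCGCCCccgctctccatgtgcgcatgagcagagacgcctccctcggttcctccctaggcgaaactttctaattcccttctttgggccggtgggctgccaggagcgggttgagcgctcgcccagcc
Lamb2: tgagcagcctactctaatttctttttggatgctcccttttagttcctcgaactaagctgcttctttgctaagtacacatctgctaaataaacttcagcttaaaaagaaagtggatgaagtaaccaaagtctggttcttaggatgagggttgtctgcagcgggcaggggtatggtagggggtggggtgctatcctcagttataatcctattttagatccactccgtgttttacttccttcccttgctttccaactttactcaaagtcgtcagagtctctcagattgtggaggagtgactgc
Hspg2: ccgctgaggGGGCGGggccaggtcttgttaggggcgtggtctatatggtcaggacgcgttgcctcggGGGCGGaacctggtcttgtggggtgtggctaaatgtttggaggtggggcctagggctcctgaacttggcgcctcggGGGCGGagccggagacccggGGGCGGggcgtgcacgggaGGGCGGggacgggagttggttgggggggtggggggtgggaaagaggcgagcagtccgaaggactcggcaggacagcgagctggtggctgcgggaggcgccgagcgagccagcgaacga
Npnt: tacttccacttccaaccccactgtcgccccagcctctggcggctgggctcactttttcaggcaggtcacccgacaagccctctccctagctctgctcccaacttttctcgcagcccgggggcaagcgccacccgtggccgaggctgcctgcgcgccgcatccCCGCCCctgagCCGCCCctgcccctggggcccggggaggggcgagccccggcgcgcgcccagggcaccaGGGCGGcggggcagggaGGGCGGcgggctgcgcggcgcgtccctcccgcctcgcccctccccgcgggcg
The Lamb1 window held 2 GC boxes, 18 CpG dinucleotides and 63.7% G and C, and the Lamb2 window held 0 GC boxes, 4 CpG and 44% G and C. The Hspg2 window held 5 GC boxes and the Npnt window 4. Of 31 windows listed for 23 of the members, 67.7% held a GC box on either strand, against 35.7% of all 32851 windows of the table. The members' windows were also richer in G and C (median 63.3% against 52.7%) and in CpG (median 18 against 7), and 8 members had 2 windows each, which overlapped for 4 of them. CCAAT or its complement ATTGG was in 32.3% of the members' windows and 37.4% of all, and TATAAA or its complement TTTATA in 0% and 13.6%, each motif being counted by itself. These are matches of letters and do not show binding.

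In ABTAA libraries, 1 of the 31 tested genes passed the test against Fc, and it rose. This was Hspg2, the gene of perlecan. No member passed in the lower direction. Over all tested genes 0.847% were called higher and 0.555% lower, a split of 119 to 78 that became 66 to 106 with library totals in place of TMM scaling and 416 to 313 with DESeq2. These 197 calls became 0 when ABTAA 2 was left out, 13 to 47 on omission of any Fc library, 58 on that of ABTAA 1, 101 on that of VEGF Trap 2 and 373 on that of VEGF Trap 1. Libraries of ABTAA and Fc did not overlap for 8 members that were higher in ABTAA and 1 that was lower, where 11.7% and 11.3% of all genes had no overlap in these directions. The median log2 fold change of the tested members was 0.23, and that of all tested genes was -0.0029. The members' median was 0.14 without ABTAA 1. In VEGF Trap libraries, Npnt, the gene of nephronectin, rose and Lamb1, the gene of the laminin beta 1 chain, fell. Over all tested genes 0.512% were called higher and 0.512% lower in this comparison, a split of 72 to 72 that became 39 to 182 with library totals. These 144 calls became 7 to 32 without an Fc library, 25 to 62 without a VEGF Trap library and 657 with DESeq2. Rn45s, whose shares are given above, was higher in every VEGF Trap library than in every Fc library, and its part in these calls was not tested. Without VEGF Trap 1, Npnt was called at 0.97 (adjusted p = 0.0350, edgeR) and Lamb1 was not at -0.61 (adjusted p = 0.0543). Libraries of VEGF Trap and Fc did not overlap for 5 members that were higher and 4 that were lower, where 10.4% and 10.5% of all genes had no overlap. The median was 0.15 for the members and 0.0010 for all genes, and the first was 0.06 without VEGF Trap 2 and 0.07 with library totals. Both comparisons use the same Fc libraries, so they are not independent of each other. Summed markers of pericytes and smooth muscle were 779 to 1059.5 CPM in Fc, 1037 to 1374 CPM in ABTAA and 757 to 1065 CPM in VEGF Trap, and those of macrophages 1628 to 1763, 1273 to 1524 and 1566 to 1853 CPM. Those of pigment epithelium were 2260 to 3392, 2474 to 3247 and 2863 to 3275 CPM, and those of fibroblasts 6363 to 7651, 5606 to 7612 and 5978 to 7844 CPM. Among Fc libraries, Fc 1 had the lowest pigment epithelium sum (2260 CPM, against 3340 and 3392) and the highest fibroblast sum. Of the pigment epithelium markers only Krt18 was called, lower in ABTAA (log2 -0.71, adjusted p = 0.0342, edgeR). Melanocyte markers summed to 2099 to 2395 CPM in Fc, 2757 to 2833 CPM in ABTAA and 2195 to 3990 CPM in VEGF Trap, with Pmel called higher in both treated groups and Tyr in VEGF Trap. Schwann cell markers summed to 681 to 905, 986 to 1015 and 881 to 1007 CPM, so that the melanocyte and Schwann sums, like the endothelial and muscle sums, were higher in every ABTAA library than in every Fc library. A few genes made up most of these 2 sums. In Fc, Dct had a mean of 1929 CPM in the melanocyte list, and S100b and Pmp22 had 406 and 336 CPM in the Schwann list. By log2 fold change in ABTAA, 4 Schwann markers were positive and 2 negative (Mbp -0.16 and Prx -0.48). The part of any of these cell types in the members' values was not tested.

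**Figure D1:**
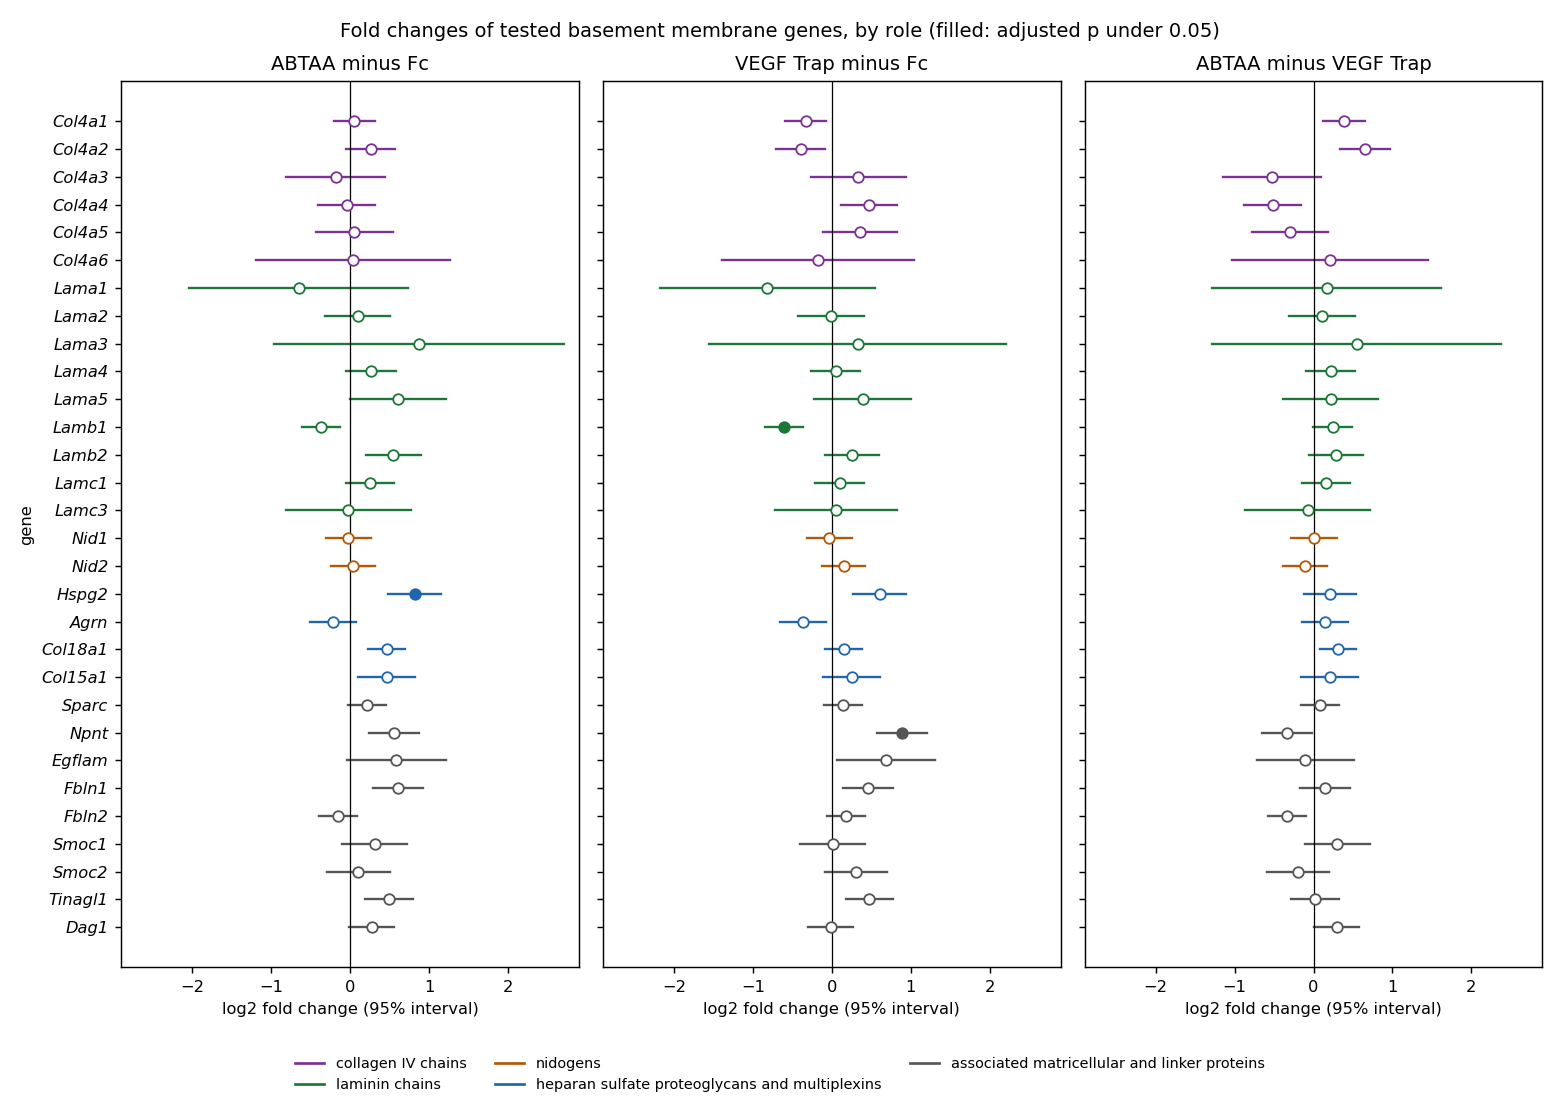
Log2 fold changes of 30 of the 31 tested members in 3 comparisons (Lamb3, whose intervals are wider than the axis, is left out), with 95% intervals from edgeR, coloured by role. Filled points passed an adjusted p of 0.05: Hspg2 in ABTAA minus Fc and Lamb1 and Npnt in VEGF Trap minus Fc.

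Among collagen IV chains, which form the scaffold of the sheet, 0 of 6 passed in either comparison with Fc. Col4a1, the alpha 1 chain of nearly all basement membranes, stood at 232, 185 and 190.4 CPM in Fc, 223, 217 and 189.8 CPM in ABTAA, and 175, 163 and 144 CPM in VEGF Trap. Col4a2, whose alpha 2 chain joins alpha 1 in the same triple helix, stood at 59.4, 48.2 and 55.4 CPM in Fc, 55.4, 71.3 and 68.4 CPM in ABTAA, and 41.4, 47.0 and 35.2 CPM in VEGF Trap. For both genes every VEGF Trap library lay below every Fc and every ABTAA library, while Fc and ABTAA overlapped. The log2 fold change in VEGF Trap was -0.33 ± 0.12 (SE) for Col4a1 (adjusted p = 0.188, edgeR) and -0.39 ± 0.15 for Col4a2 (adjusted p = 0.200). In ABTAA it was 0.05 ± 0.12 and 0.26 ± 0.15, and for Col4a1 this value was -0.01 without Fc 2.

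Col4a4, whose chain joins those of Col4a3 and Col4a5 in a separate network known from the kidney glomerulus, went the other way in VEGF Trap. It stood at 24.3, 31.5 and 25.4 CPM in Fc, 27.6, 28.5 and 22.4 CPM in ABTAA, and 45.6, 34.7 and 32.2 CPM in VEGF Trap. Every VEGF Trap library lay above every other library, with a log2 fold change against Fc of 0.47 ± 0.17 that did not pass (adjusted p = 0.169, edgeR). The values for its network partners in VEGF Trap were 0.34 ± 0.28 for Col4a3 and 0.36 ± 0.22 for Col4a5. Col4a6 was counted at 5 to 17 reads per library and had a 95% interval from -1.39 to 1.04 in VEGF Trap.

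Laminins are trimers of an alpha, a beta and a gamma chain, and cells bind them through the alpha chain. Of 10 laminin genes, 0 passed in ABTAA and 1 fell in VEGF Trap. Lamb1, the beta 1 chain (chromosome 12, 31265234 to 31329644, plus strand), stood at 89.3, 89.5 and 87.1 CPM in Fc, 63.4, 68.3 and 74.6 CPM in ABTAA, and 58.6, 60.6 and 55.0 CPM in VEGF Trap. All 6 libraries of the treated groups lay below the 3 Fc libraries, and those of VEGF Trap lay below those of ABTAA. Mean levels were 88.6 ± 1.35 CPM in Fc and 58.1 ± 2.82 CPM in VEGF Trap (SD, n = 3 each), and the log2 fold change was -0.61 ± 0.11 (adjusted p = 0.0322, edgeR). In ABTAA it was -0.37 ± 0.11 and did not pass (adjusted p = 0.113). The VEGF Trap call ended without any single Fc or VEGF Trap library, with values of -0.64 to -0.57 and adjusted p of 0.0543 to 0.147.

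Lamb2, the beta 2 chain of vessel walls, the retina and the nerve-muscle synapse, stood at 32.7, 27.4 and 30.2 CPM in Fc, 42.2, 47.2 and 42.4 CPM in ABTAA, and 29.3, 45.4 and 33.0 CPM in VEGF Trap. ABTAA libraries all lay above Fc libraries, while VEGF Trap libraries spanned both ranges. The log2 fold change was 0.55 ± 0.16 in ABTAA (adjusted p = 0.0971, edgeR) and 0.26 ± 0.16 in VEGF Trap (adjusted p = 0.481), where it was 0.05 without VEGF Trap 2 and 0.40 without VEGF Trap 1. Skeletal muscle markers, whose sums are given above, were also higher in every ABTAA library than in every Fc library, and their part in the Lamb2 value was not tested.

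The ratio of Lamb1 to Lamb2 counts within a library needs no scaling between libraries, and was computed after these values had been seen. It was 2.73, 3.26 and 2.89 in Fc, 1.501, 1.45 and 1.76 in ABTAA, and 1.997, 1.34 and 1.67 in VEGF Trap. The ratio was at least 2.73 in each Fc library and at most 1.997 in each of the others, with means of 2.96 ± 0.27, 1.57 ± 0.17 and 1.67 ± 0.33 (SD, n = 3 each). An exact permutation test of 3 against 3 libraries cannot give a 2-sided p under 0.1, and it gave p = 0.1 for each treatment against Fc. The ratios are therefore given as a description only, and those of ABTAA and VEGF Trap overlapped. The ratio of Col4a1 to Col4a2 counts was 3.90, 3.84 and 3.44 in Fc, 4.02, 3.04 and 2.78 in ABTAA, and 4.22, 3.47 and 4.08 in VEGF Trap, with overlap of all groups.

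**Figure D2:**
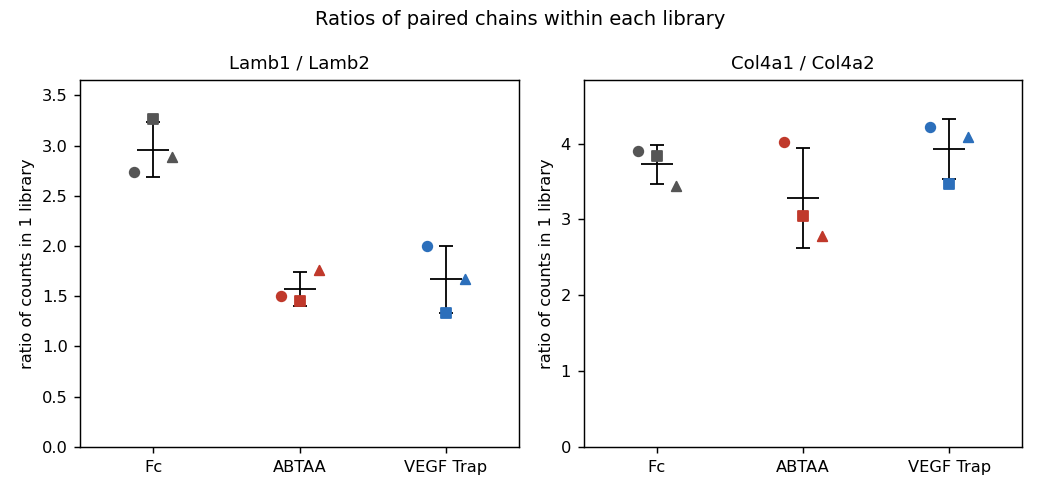
Ratio of Lamb1 to Lamb2 counts (left) and of Col4a1 to Col4a2 counts (right) within each of the 9 libraries, as points (circle, square and triangle for replicates 1, 2 and 3) with the group mean and SD. The Lamb1 ratio was between 2.73 and 3.26 in Fc and between 1.34 and 1.997 in the 6 treated libraries, while the Col4a1 ratio overlapped between all groups.

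Lamc1, the gamma 1 chain of most laminins, stood at 35.97, 31.8 and 35.6 CPM in Fc, 41.4, 45.2 and 36.3 CPM in ABTAA, and 33.9, 42.8 and 33.6 CPM in VEGF Trap. The ABTAA libraries lay just above the Fc range, with a log2 fold change of 0.25 ± 0.14 (adjusted p = 0.403, edgeR). Lama5, the alpha 5 chain of epithelial and mature vascular laminins, stood at 6.54, 3.31 and 4.89 CPM in Fc, 6.82, 9.32 and 6.10 CPM in ABTAA, and 5.80, 7.18 and 6.24 CPM in VEGF Trap. Its groups overlapped, and the log2 fold changes of 0.60 ± 0.29 and 0.39 ± 0.29 did not pass (adjusted p = 0.302 and 0.564), the second being 0.17 without Fc 2 and 0.64 without Fc 1. Lama4, the alpha 4 chain typical of endothelium, had means of 119 ± 20.8, 143 ± 26.5 and 123 ± 2.46 CPM in Fc, ABTAA and VEGF Trap, and Lama2, the alpha 2 chain of muscle and Schwann cells, 10.5 ± 1.19, 11.2 ± 1.03 and 10.4 ± 1.35 CPM. Lamc3 had means of 3.54, 3.44 and 3.63 CPM. Lama1, Lama3 and Lamb3 were counted at no more than 22 reads in any library, with Lamb3 at 0 in 4 libraries, and changes in them were not detectable at this depth.

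Nidogens, which bridge laminin and collagen IV, differed little between groups. Nid1 stood at 72.0, 58.3 and 70.1 CPM in Fc, 64.1, 69.1 and 64.0 CPM in ABTAA, and 62.3, 75.8 and 57.7 CPM in VEGF Trap, with full overlap. Its log2 fold change had 95% intervals from -0.31 to 0.26 in ABTAA and from -0.32 to 0.26 in VEGF Trap. Nid2 had intervals from -0.24 to 0.32 and from -0.13 to 0.43, but the last 200 bases of its transcript match Rtraf on the other strand, and without a stated strand setting the reads of these genes cannot be told apart.

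Of 4 proteoglycan genes (the multiplexin collagens XV and XVIII carry sugar chains and are counted here), 1 rose in ABTAA and 0 passed in VEGF Trap. Hspg2 encodes perlecan, which binds growth factors through heparan sulfate (chromosome 4, 137468769 to 137570630, plus strand). It stood at 273, 184 and 169.8 CPM in Fc, 397, 397 and 308 CPM in ABTAA, and 319, 307 and 326 CPM in VEGF Trap. Every treated library lay above every Fc library, and Fc 1 was the highest of the Fc libraries. Mean levels were 209 ± 56.0 CPM in Fc and 368 ± 51.3 CPM in ABTAA (SD, n = 3 each), which gives a log2 fold change of 0.82 ± 0.16, or 1.76-fold (adjusted p = 0.0303, edgeR). In VEGF Trap it was 0.60 ± 0.16 and did not pass (adjusted p = 0.0689, edgeR). It passed with DESeq2, limma-voom, no filter and counts divided by their common divisor (adjusted p of 0.00118 to 0.0490). Without Fc 1 it passed at 0.84 (adjusted p = 0.0435, edgeR), and it also passed with the replicate number as a block.

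The ABTAA call for Hspg2 ended without Fc 2 (0.73, adjusted p = 0.139), Fc 3 (0.68, 0.0915), ABTAA 1 (0.76, 0.0716) or ABTAA 2 (0.76, 0.129), by edgeR. The summed level of the 12 endothelial markers, like Hspg2, was higher in every ABTAA library than in every Fc library. In VEGF Trap the sum overlapped Fc, while 3 of the 12 markers (Plvap, Cldn5 and Eng) were higher in every library than in Fc. By log2 fold change, 8 of the 12 were positive and 4 negative in VEGF Trap. The sum was 1842 to 2341 CPM in Fc, highest in Fc 1, 2812 to 2963 CPM in ABTAA and 2153 to 2375 CPM in VEGF Trap, and 5 of the 12 rose in ABTAA against 0 in VEGF Trap. Skeletal muscle fibres also carry perlecan, and 8 of 12 muscle markers rose in ABTAA and 3 in VEGF Trap. The part of either cell type in the Hspg2 values was not tested.

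Col18a1, whose C-terminal fragment is endostatin, stood at 149, 177 and 183 CPM in Fc, 222, 248 and 229 CPM in ABTAA, and 180.4, 197 and 187 CPM in VEGF Trap. ABTAA libraries lay above all 6 others, with a log2 fold change against Fc of 0.46 ± 0.11 that lay just outside the threshold (adjusted p = 0.0513, edgeR). It passed with DESeq2, limma-voom, either other filter and counts divided by their common divisor, with adjusted p of 0.00208 to 0.0481, and also without VEGF Trap 1 (0.0390). Col15a1, the related collagen XV of muscle and capillaries, had means of 26.8 ± 6.57 CPM in Fc, 36.9 ± 4.89 CPM in ABTAA and 31.9 ± 0.798 CPM in VEGF Trap (log2 0.46 ± 0.17 in ABTAA, adjusted p = 0.179).

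Agrn, which encodes agrin, a heparan sulfate proteoglycan of the nerve-muscle synapse and of several epithelia, had a negative log2 fold change in both comparisons. It stood at 93.6, 97.4 and 101 CPM in Fc, 85.3, 68.3 and 97.6 CPM in ABTAA, and 84.6, 73.5 and 68.2 CPM in VEGF Trap. VEGF Trap libraries lay below the Fc range, while ABTAA 3 lay inside it. The log2 fold change was -0.37 ± 0.14 in VEGF Trap (adjusted p = 0.202, edgeR) and -0.22 ± 0.14 in ABTAA (adjusted p = 0.448), where it was -0.09 without ABTAA 2 and -0.34 without ABTAA 3.

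**Figure D3:**
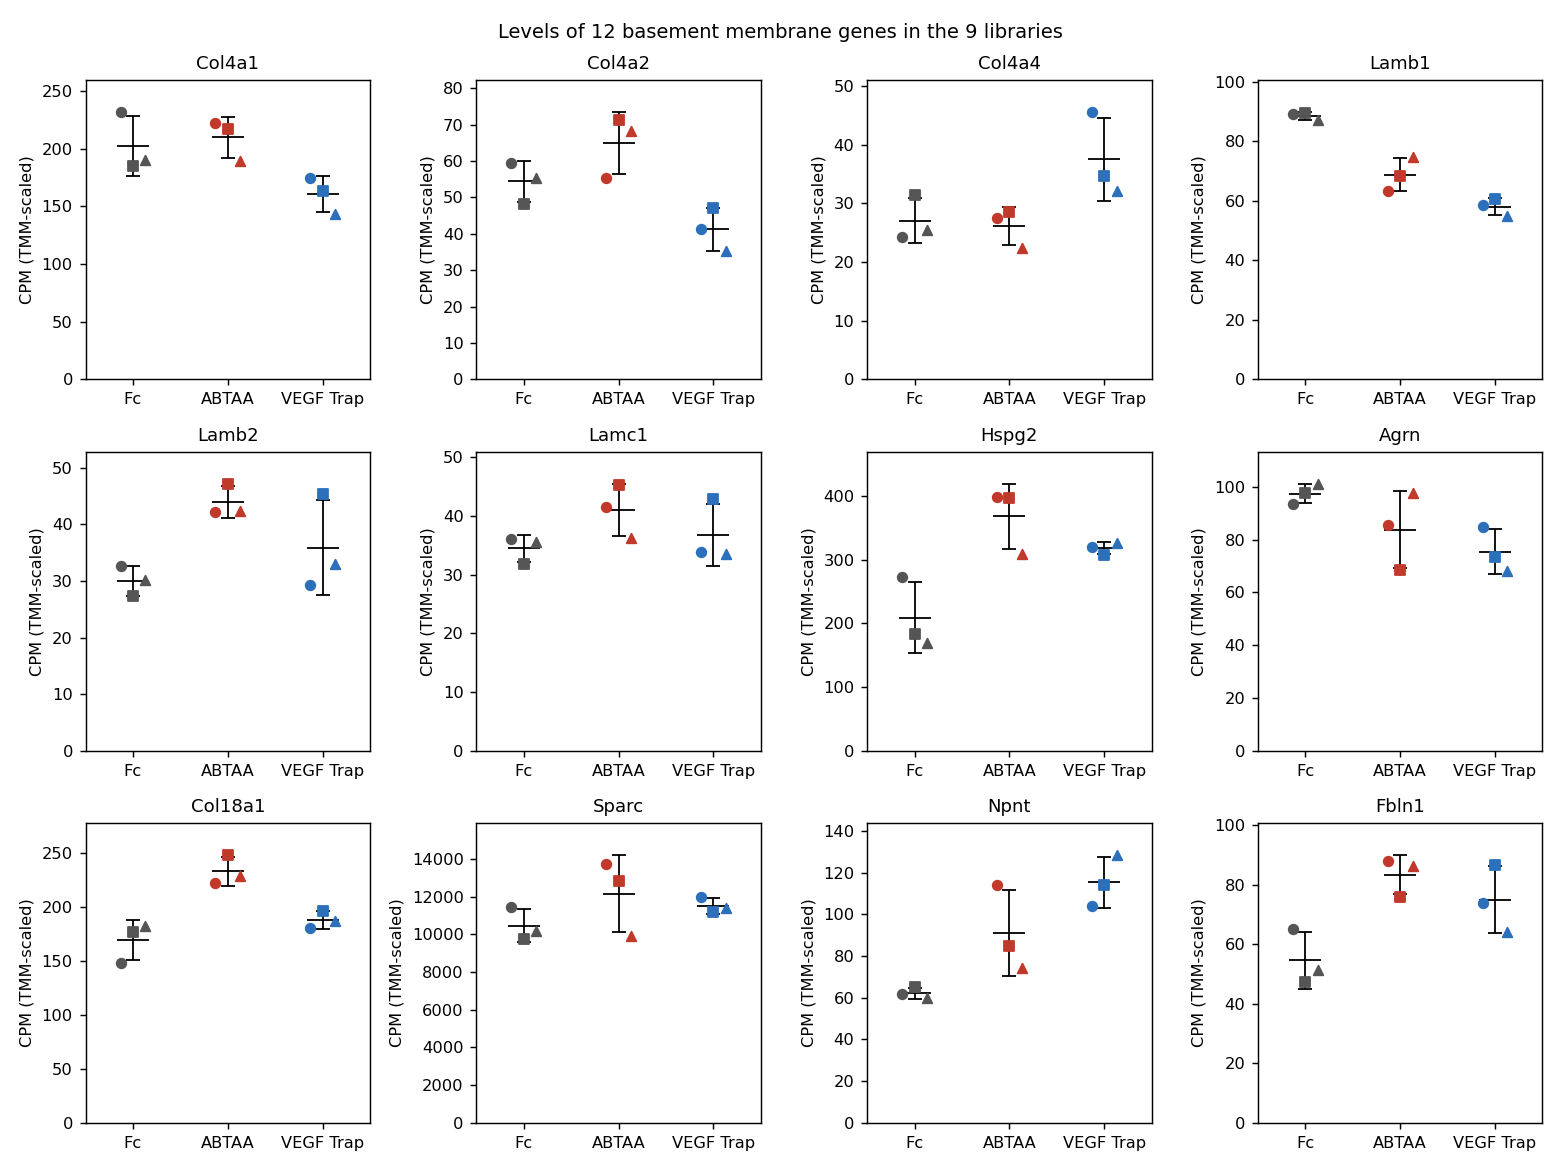
TMM-scaled CPM of 12 members in each of the 9 libraries (circle, square and triangle for replicates 1, 2 and 3), with the mean and SD of each group of 3. Lamb1 lies lower and Hspg2 and Npnt lie higher in all 6 treated libraries than in Fc, and Col4a1 and Col4a2 are lowest in VEGF Trap.

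Of the 10 genes of proteins attached to the sheet, 9 were tested, and 0 passed in ABTAA and 1 rose in VEGF Trap. Npnt encodes nephronectin, a ligand of the integrin alpha 8 beta 1 (chromosome 3, 132881745 to 132950291, minus strand). It stood at 61.7, 64.9 and 59.9 CPM in Fc, 114, 84.8 and 74.3 CPM in ABTAA, and 104, 114 and 128 CPM in VEGF Trap. Every treated library lay above the Fc range, and ABTAA libraries were the more spread. Mean levels were 62.2 ± 2.53 CPM in Fc and 115 ± 12.2 CPM in VEGF Trap (SD, n = 3 each), and the log2 fold change was 0.89 ± 0.15, or 1.85-fold (adjusted p = 0.0188, edgeR). In ABTAA it was 0.55 ± 0.15 and did not pass (adjusted p = 0.0719), with 0.36 without ABTAA 1 and a passing 0.68 without ABTAA 3 (adjusted p = 0.0488). All 9 Npnt counts, from 475 to 1635, were multiples of 5, so its counting error may be larger than the counts show. The sum of the skeletal muscle markers was higher in every VEGF Trap library than in every Fc library, as Npnt levels were. Taken singly, 7 of the 12 markers were. The part of muscle in the Npnt value was not tested.

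The VEGF Trap call for Npnt ended without Fc 1, Fc 2, Fc 3 or VEGF Trap 3, with log2 fold changes of 0.81 to 0.92 and adjusted p of 0.0570 to 0.0911 by edgeR. It held when counts were divided by their common divisor.

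Fbln1, a fibulin of vessel walls and basement membranes, stood at 65.3, 47.3 and 51.2 CPM in Fc, 88.0, 75.9 and 86.2 CPM in ABTAA, and 73.8, 86.7 and 64.3 CPM in VEGF Trap. ABTAA libraries lay above the Fc range, and VEGF Trap 3 lay within it. The log2 fold change was 0.61 ± 0.15 in ABTAA (adjusted p = 0.0553, edgeR) and 0.46 ± 0.15 in VEGF Trap (adjusted p = 0.134). In ABTAA it passed with DESeq2, limma-voom, either other filter, only the compared groups and the common divisor (adjusted p of 0.00429 to 0.0456), and without VEGF Trap 1 (0.0452). Tinagl1, which encodes a secreted protein of vascular basement membranes, stood at 29.7, 36.5 and 37.7 CPM in Fc, 43.8, 54.5 and 47.9 CPM in ABTAA, and 52.7, 44.3 and 47.7 CPM in VEGF Trap. Both treated groups lay above Fc and overlapped each other, with log2 fold changes of 0.49 ± 0.14 and 0.48 ± 0.14 that did not pass (adjusted p = 0.0914 and 0.109). With DESeq2, Lamb1, Lamb2, Col18a1, Npnt, Fbln1 and Tinagl1 passed in ABTAA beside Hspg2, and Hspg2, Fbln1 and Tinagl1 passed in VEGF Trap beside Lamb1 and Npnt.

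Sparc, a collagen-binding glycoprotein of remodelling matrix, alone held 0.994% to 1.35% of all counts of a library, and the 31 other members together held 0.220% to 0.272%. It stood at 11424, 9755 and 10196 CPM in Fc, 13749, 12845 and 9883 CPM in ABTAA, and 11999.7, 11174 and 11374 CPM in VEGF Trap. ABTAA 3 lay within the Fc range, and the log2 fold changes of 0.22 ± 0.11 and 0.14 ± 0.11 did not pass (adjusted p = 0.355 and 0.608, edgeR). Dag1, the laminin receptor dystroglycan, had means of 402 ± 60.4, 486 ± 19.8 and 398 ± 66.9 CPM in Fc, ABTAA and VEGF Trap. The ABTAA libraries lay just above the Fc range, with a log2 fold change of 0.27 ± 0.13 that did not pass (adjusted p = 0.317). Fbln2 had means of 322 ± 6.23, 291 ± 31.8 and 366 ± 41.6 CPM, and Smoc1, a relative of Sparc, 157 ± 38.4, 195 ± 46.5 and 158 ± 30.6 CPM. Smoc2 had means of 14.1 to 17.4 CPM and Egflam, the gene of the dystroglycan ligand pikachurin of photoreceptor synapses, of 6.42 to 10.3 CPM. Ntn4, a netrin related to laminins, was counted at 0 to 9 reads and was not tested.

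ABTAA and VEGF Trap libraries were also set against each other, to test whether these genes differ between the treatments. By edgeR, 0 of 31 members and 0% of all tested genes passed, and 7 members had an unadjusted p under 0.05, 4 higher and 3 lower in ABTAA, where 5.06% of all tested genes (711) did. DESeq2 also called 0 members. Libraries did not overlap for 5 members that were higher and 2 that were lower in ABTAA, where 5.14% and 4.74% of all genes had no overlap. The median log2 fold change was 0.16 for the members and -0.0033 for all genes, and the first was 0.07 without ABTAA 2 or without VEGF Trap 3. Col4a2 had the smallest p of the members, with a log2 difference of 0.65 ± 0.15 and a 95% interval from 0.34 to 0.97 (adjusted p = 0.851, edgeR). Col4a1 had 0.39 ± 0.12 and Col4a4 -0.52 ± 0.17 (adjusted p = 0.932 for both). Hspg2 differed by 0.21 with an interval from -0.12 to 0.54, Lamb1 by 0.24 with an interval from -0.01 to 0.49, and Npnt by -0.34 with an interval from -0.65 to -0.02, none of which passed. For Hspg2, Lamb1 and Npnt, a call in only 1 of the comparisons with Fc therefore does not show that the treatments differ.

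Genes that act with basement membranes were followed in 5 lists, chosen by role but with earlier results of these data known. Of 77 tested genes, 0 passed in any comparison by edgeR. At an unadjusted p under 0.05 were 20 genes in ABTAA against Fc, 14 in VEGF Trap against Fc and 3 in ABTAA against VEGF Trap, or 26.0%, 18.2% and 3.90%, where all tested genes had 16.9%, 15.4% and 5.06%. Of the 31 tested members, 8, 10 and 7 were under it in the same order, or 25.8%, 32.3% and 22.6%. Members and lists were chosen with earlier results known, so these shares are a description only. Among 13 receptors for laminin and collagen the medians were -0.09 in ABTAA and 0.00 in VEGF Trap, and Itgb4, the integrin beta chain of hemidesmosomes, had a log2 fold change of 0.81 ± 0.27 in ABTAA (adjusted p = 0.138, edgeR). The laminin-binding integrin gene Itga3 had 0.54 ± 0.22 in ABTAA and 0.55 ± 0.21 in VEGF Trap. Among 20 genes of collagen folding and crosslinking the medians were 0.04 and -0.03. Colgalt1, a collagen galactosyltransferase, had 0.34 ± 0.11 in ABTAA and 0.46 ± 0.11 in VEGF Trap (adjusted p = 0.113 and 0.0511), and Loxl1, which crosslinks elastic fibres, 0.41 ± 0.11 and 0.36 ± 0.11 (adjusted p = 0.0640 and 0.106).

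The 19 genes of the elastic layer and outer Bruch membrane had medians of 0.12 in ABTAA and 0.19 in VEGF Trap. The microfibril genes Mfap2 and Fbn1 had 0.69 ± 0.18 and 0.41 ± 0.12 in ABTAA (adjusted p = 0.0654 and 0.0937, edgeR). Among 12 other basement membrane genes, Ntn1, a netrin, had 0.84 ± 0.22 in ABTAA and 0.63 ± 0.22 in VEGF Trap (adjusted p = 0.0665 and 0.158), and Vwa1, a perlecan-binding protein, 0.27 ± 0.23 and -0.37 ± 0.23. Vwa1 was named for its p in ABTAA against VEGF Trap, where it had 0.65 ± 0.23 and did not pass (adjusted p = 0.943, edgeR). Among 13 genes that make or edit heparan sulfate the medians were 0.02 and 0.01. Sulf1, a sulfatase that trims heparan sulfate, had -0.42 ± 0.12 in ABTAA and -0.27 ± 0.12 in VEGF Trap (adjusted p = 0.0945 and 0.293). Hpse, the heparanase, had 0.62 ± 0.19 and 0.63 ± 0.19 (adjusted p = 0.114 and 0.118).

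**Figure D4:**
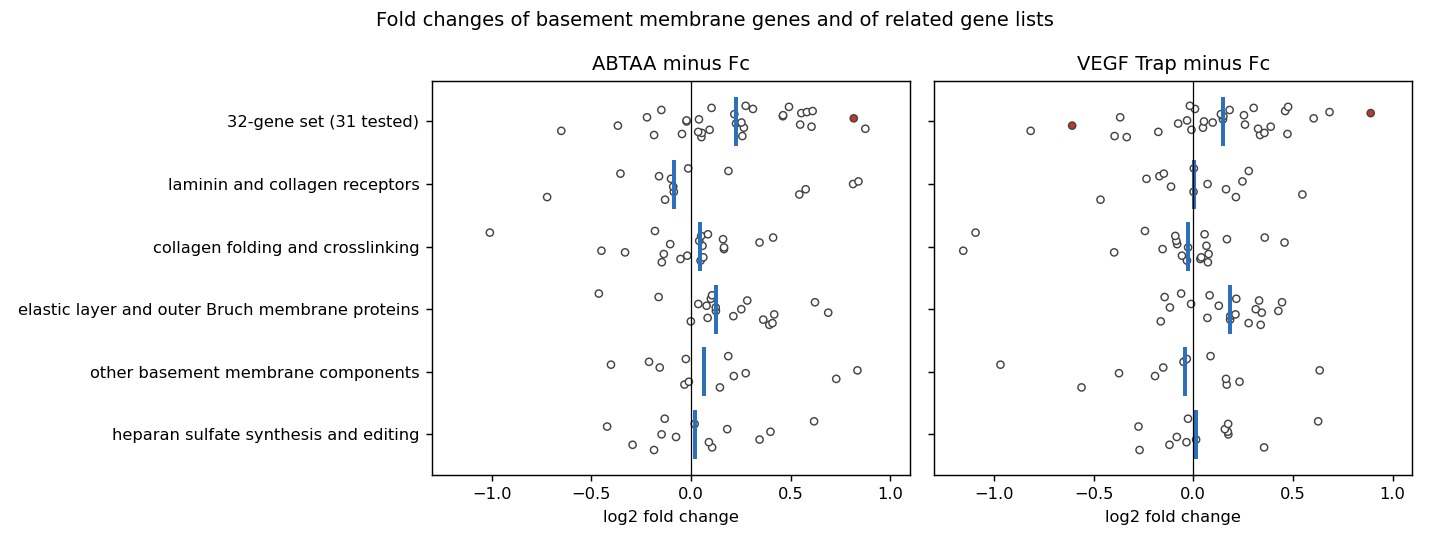
Log2 fold changes against Fc of the tested members and of 5 lists of related genes, 1 point per gene, with the median of each list as a bar and called genes filled. The members' medians were 0.23 in ABTAA and 0.15 in VEGF Trap, those of the other lists lay between -0.09 and 0.19, and no gene of the other lists was called.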

How the data were processed

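RNA of laser-captured pigment epithelium and choroid was sequenced in 9 libraries with the Lexogen QuantSeq kit, which reads 3 prime ends, from 500 ng of total RNA, per the labels' protocols. Each deposited table gives raw counts as integers, 1 value per gene symbol. Bowtie2, edgeR and mm10 are named in the submitters' processing notes. No source used here gives versions, the annotation, the counter, the strand setting or how multiply matching reads were handled. Because reads come from transcript ends, counts were not divided by gene length, and levels are compared between libraries, not between genes.

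After filterByExpr and TMM scaling, the quasi-likelihood F-test of edgeR 4.0.16 was run in R 4.3.3. The model had 1 mean per group, was fitted to all 9 libraries and left 6 residual degrees of freedom. P-values were adjusted by Benjamini-Hochberg over all 14054 tested genes within each comparison, with a threshold of 0.05. Standard errors were derived from the log2 fold change and F (their ratio after taking the root of F), and SDs are over 3 libraries. The scripts were tested on simulated data. Within groups, library pairs differed by 8.12 to 19.3 times counting noise (chi-square over its degrees of freedom), so no pair was treated as repeat deposits of 1 library, which does not show that they came from separate animals. Of 14167 genes counted in every library, 11.4% had only even counts.

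The members, the lists and the alternatives were chosen with earlier results of these data known. Named with a value in every library were members that passed, those with an unadjusted p under 0.01 in any comparison, and 10 core members whatever their p. Of each other list, the 2 genes with the smallest p were named. Coordinates and exon overlaps came from GENCODE M21 on GRCm38, where all 32 symbols matched. Promoters came from RefSeq on GRCm38.p6. With BLAST+ 2.17.0, the last 200 bases of transcripts matched another gene over at least 100 bases at 95% identity for Col4a3, Lama2 and Nid2, whose values are uncertain. Exons of 10 members overlap a gene on the other strand. Alternatives were DESeq2 1.42.0, limma-voom (limma 3.58.1), RLE scaling, library totals, no filter, 10 counts in 6 libraries, a fit of only 2 groups, a replicate block, counts divided by the common divisor of the gene, and omission of each library.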

Additional observations from a re-analysis of the deposited data

How the results depend on the processing

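The median log2 fold change of the tested members moved by less than 0.115 under every alternative run, which is the SD of the members' median log2 level between libraries of a group. It ran from 0.142 to 0.227 (ABTAA), 0.0608 to 0.200 (VEGF Trap) and 0.0682 to 0.206 (ABTAA against VEGF Trap) without single libraries. The count of members called in ABTAA against Fc, 1, became 7 with DESeq2, 5 without a filter and 3 with limma-voom, with 10 counts in 6 libraries, with only the compared groups and with counts divided by their common divisor. It ran from 0 to 3 without single libraries, with 0 without Fc 2, Fc 3, ABTAA 1 or ABTAA 2, 2 without ABTAA 3 and 3 without VEGF Trap 1. The count in VEGF Trap against Fc, 2, became 5 with DESeq2 and 3 (Hspg2 added) with limma-voom, without a filter and with the common divisor, and ran from 0 to 2 without single libraries, with 0 without Fc 2, Fc 3 or VEGF Trap 3 and 1 without Fc 1, VEGF Trap 1 or VEGF Trap 2. In ABTAA against VEGF Trap, 0 members were called under every alternative except without a filter, where 1 passed (Col4a2, 0.65, adjusted p = 0.0320). The cause of these changes was not tested, and omission of a library also leaves fewer samples. None of the 15 members with values in every library changed sign with RLE scaling or library totals. With library totals, Col4a6 (-0.00791) and Nid2 (-0.00585) did in ABTAA and Lama4 (-0.0262), Lamc3 (-0.0276) and Smoc1 (-0.0739) in VEGF Trap, all near 0. Of the 45 values of the 15 members, 24 moved by over 1.5 times without some single library.

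Values that changed sign were all near 0 and not called. With limma-voom, Nid1 was 0.00717 in VEGF Trap against Fc and -0.0157 in ABTAA against VEGF Trap. Without single libraries, ABTAA against Fc ran from -0.00968 to 0.160 for Col4a1, from -0.118 to 0.0763 for Col4a4 and from -0.112 to 0.0329 for Nid1. VEGF Trap against Fc ran from -0.0309 to 0.164 for Lamc1 and from -0.155 to 0.0512 for Nid1. ABTAA against VEGF Trap ran from -0.0698 to 0.132 for Nid1, from -0.0206 to 0.208 for Sparc and from -0.0774 to 0.0871 for Tinagl1.

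The groups share replicate numbers, and all 9 libraries were closest to their own number. Correlations of deviations between same-numbered libraries were small (0.013 to 0.112, above 0.1 in 2 of 9 pairs). No label says what a number stands for, so the main model was not paired, and a shared batch was not tested. A replicate block raised the calls over all tested genes from 119 higher and 78 lower to 193 and 141 in ABTAA. In VEGF Trap they went from 72 and 72 to 168 and 132. With the replicate block, 3 members were called in ABTAA (Hspg2, Col18a1 and Fbln1), 3 in VEGF Trap (Lamb1, Hspg2 and Npnt) and 0 between the treatments. Depth limits Ntn4, Lama1, Lama3, Lamb3 and Col4a6, at no more than 22 counts in any library.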

Other observations

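Of the 32 members, 9 had counts that shared a divisor above 1 over all libraries. The divisor was 5 for Npnt, 3 for Egflam and 2 for Col4a5, Lamb3, Col18a1, Sparc, Fbln2, Smoc1 and Tinagl1. After division, Npnt still passed in VEGF Trap against Fc, and Col18a1 passed in ABTAA against Fc (log2 0.46, adjusted p = 0.0481, edgeR).

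In VEGF Trap, the collagen IV genes Col4a1 and Col4a2 had the opposite sign to Col4a3, Col4a4 and Col4a5, whose chains form a separate network. Against Fc, Col4a1 and Col4a2 had log2 fold changes of -0.33 and -0.39, and Col4a3, Col4a4 and Col4a5 had 0.34, 0.47 and 0.36. Col4a6, at 5 to 17 reads per library, had -0.18, and the Col4a3 value is uncertain because its transcript end matches another gene. None of these passed, and the difference between the networks was not tested.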
